A study of Homo sapiens with 30 samples.

Results

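The genes described here are 47 genes of DNA double-strand break repair, taken by name from a list and found by their Ensembl identifiers among the 60554 genes counted in T47D cells. They fall into 13 genes of damage signalling, 15 of homologous recombination, 10 of the Fanconi pathway and 9 of end joining, and all 47 passed the filter on low counts in every fit. T47D is a human breast cancer cell line of luminal type that carries the progesterone receptor. The study is titled as a test of C/EBPa, the transcription factor encoded by CEBPA, in the growth inhibition of breast cancer cells by progestins, and its design text adds the effect of inhibiting Topo2a on hormone-dependent genes. RNA was sequenced in 12 libraries, 2 in each of 6 groups, and 18 ChIP-seq samples of the series were not analysed here.

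Cells of all 6 groups were T47D at passages 18 to 20. The siControl groups received a control siRNA and the siCEBPA groups an siRNA against CEBPA. Each was left untreated, with the time label T0, or was given the synthetic progestin R5020 at 10 nM, with the time label T360, whose unit the labels do not give. These 8 libraries carry the label short arrest, which the protocol describes as 4 h in charcoal-treated serum before hormone. The ICRF groups, untreated or given progestin, name no siRNA, no arrest and no time. The labels do not explain ICRF, a name usually given to inhibitors of topoisomerase II. No untreated library carries T360, so in the siRNA groups the hormone and the time label cannot be told apart. The labels do not say that the 2 libraries of a group are separate cultures, so the p-values may reflect technical variation between libraries and no more than that.

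Breaks through both DNA strands are sensed by the MRE11, RAD50 and NBN complex and by the Ku heterodimer. The kinases ATM and ATR pass the signal to CHEK2 and CHEK1, while RNF8 and RNF168 attach ubiquitin to the chromatin beside the break. End joining ligates the ends directly and works throughout the cell cycle, whereas homologous recombination copies the sister chromatid after resection of the ends and therefore belongs to S and G2 phase. The Fanconi pathway repairs crosslinks between the strands and hands the broken ends to recombination. Many recombination, Fanconi and checkpoint genes are transcribed mostly in dividing cells, and BRCA1, BRCA2 and PALB2 are inherited breast cancer genes.

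CEBPA was read first as a check of the siRNA labels. Its level, in CPM (counts scaled to library size, here with TMM factors over the 12 libraries), was 47.7 and 54.4 CPM in untreated siControl libraries and 207 and 204 CPM after progestin. In siCEBPA libraries it was 10.7 and 12.1 CPM untreated and 57.5 and 62.2 CPM after progestin, and with ICRF 38.1 and 38.3 CPM untreated and 89.7 and 87.3 CPM after progestin. CEBPA was thus lower with its siRNA in both states (log2 change -2.16 ± 0.073 (SE), adjusted p = 2.75e-11 untreated, and -1.76 ± 0.065, adjusted p = 7.52e-11 with progestin, edgeR's quasi-likelihood test), and the groups did not overlap. Library totals ran from 57364785 to 148624099 read pairs, and the deepest was replicate 2 of untreated siControl, against at most 70704799 in the other siRNA libraries. The 10 luminal epithelial markers summed to 5407 to 11372 CPM, while 6 basal and myoepithelial markers summed to 13.8 to 45.7 CPM and 10 fibroblast, endothelial and blood markers to 30.9 to 74.5 CPM, with 1 to 4 of these 10 at zero in each library. In bulk RNA, fewer cells of a type and less RNA per cell cannot be told apart.

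Per kilobase of exon, the Ku genes of end joining held the highest levels of the 47. In untreated siControl cells XRCC6 and XRCC5, the Ku subunits that clamp onto broken ends, averaged 126 and 87.7 CPM per kilobase. UBE2T, the ubiquitin-conjugating enzyme of the Fanconi pathway, followed at 60.8 and PRKDC, the catalytic subunit of the DNA-dependent protein kinase that Ku recruits, at 53.1. In each of these 4 genes both libraries lay above both libraries of the next gene in the order. RBBP8, which encodes the resection factor CtIP, stood next at 27.6 CPM per kilobase, with FANCI, NBN and TOPBP1 at 25.6, 22.2 and 21.3. The libraries of RBBP8 and FANCI overlapped, as did those of NBN with TOPBP1. From CHEK1 (13.4) down to XRCC2 (1.73) the genes followed in small steps, and many neighbours did not differ beyond the spread of their 2 libraries. BRCA1 averaged 12.2 CPM per kilobase, BRCA2 2.20 and ATM 2.58. The length used covers all annotated exons of a gene, such as 22317 bases in ATM and 1065 in UBE2T. The order therefore also depends on the annotation. The lowest were RAD52 at 1.22, RAD54B at 1.13 and NHEJ1 at 0.286. NHEJ1 shares 65.4% of its exonic bases with another gene on the same strand and RAD54B 55.1%, and the counting was given no option to assign reads that overlap several genes, so the values of these 2 genes are uncertain.

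**Figure D1:**
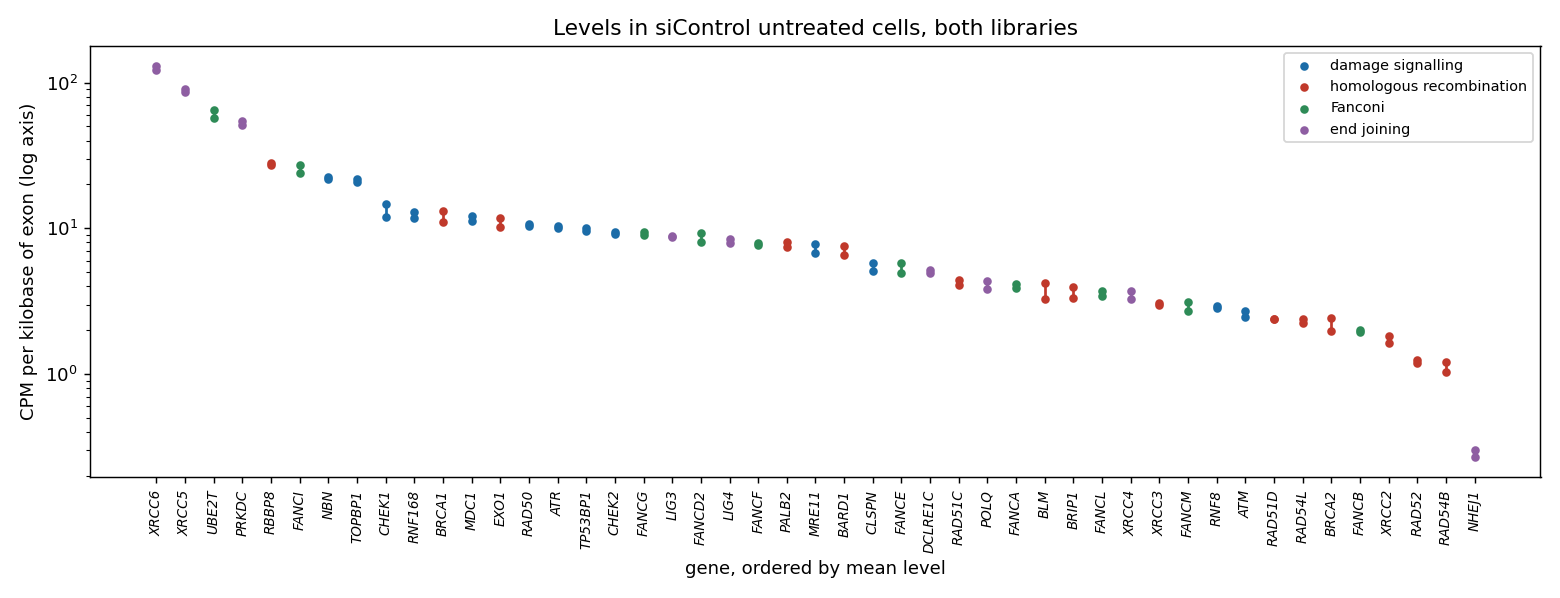
Level of each of the 47 genes in untreated siControl cells, in CPM per kilobase of exon on a log axis, with both libraries as points joined by a line and genes ordered by their mean. The Ku genes XRCC6 and XRCC5 lead at 126 and 87.7, and NHEJ1 stands last at 0.286.

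Promoter sequences are shown for 4 members whose changes the results below turn on. RNF8 and CHEK2 had the largest rise and the largest fall in damage signalling after progestin, and BRCA2 and TP53BP1 moved in opposite directions in siControl cells and with ICRF. Each window runs from 250 bases before to 50 bases after a transcription start, 5′ to 3′ on the strand of the gene, and comes from RefSeq on GRCh38.p14. They lie at chr6:37353733-37354032, plus strand (RNF8), chr22:28741771-28742070, minus strand (CHEK2), chr13:32315258-32315557, plus strand (BRCA2) and chr15:43510591-43510890, minus strand (TP53BP1). Capitals mark every match, on either strand, to the motifs named in the paragraph after the sequences.
RNF8: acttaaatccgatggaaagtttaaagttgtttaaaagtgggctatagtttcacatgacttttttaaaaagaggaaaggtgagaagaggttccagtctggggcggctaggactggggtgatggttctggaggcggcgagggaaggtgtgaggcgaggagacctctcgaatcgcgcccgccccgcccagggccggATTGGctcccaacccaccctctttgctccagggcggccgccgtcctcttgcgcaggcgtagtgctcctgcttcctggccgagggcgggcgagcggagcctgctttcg
CHEK2: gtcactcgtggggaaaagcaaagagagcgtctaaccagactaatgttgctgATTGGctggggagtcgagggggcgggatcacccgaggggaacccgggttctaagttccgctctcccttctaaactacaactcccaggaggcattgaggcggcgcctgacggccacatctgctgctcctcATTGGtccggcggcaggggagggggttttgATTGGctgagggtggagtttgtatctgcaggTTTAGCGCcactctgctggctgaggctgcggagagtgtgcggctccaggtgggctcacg
BRCA2: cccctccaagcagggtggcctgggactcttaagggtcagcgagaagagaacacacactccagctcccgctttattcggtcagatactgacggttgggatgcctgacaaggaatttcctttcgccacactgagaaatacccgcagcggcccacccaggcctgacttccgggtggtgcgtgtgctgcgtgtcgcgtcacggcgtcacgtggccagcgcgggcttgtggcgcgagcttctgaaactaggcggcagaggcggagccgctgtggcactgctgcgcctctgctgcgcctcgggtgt
TP53BP1: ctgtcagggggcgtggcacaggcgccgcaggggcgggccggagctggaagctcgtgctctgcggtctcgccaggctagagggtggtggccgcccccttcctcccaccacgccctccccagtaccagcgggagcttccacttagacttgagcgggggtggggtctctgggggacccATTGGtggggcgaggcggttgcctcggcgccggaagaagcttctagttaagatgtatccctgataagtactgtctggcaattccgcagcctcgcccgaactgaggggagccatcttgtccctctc

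The motifs were searched on both strands, and in the printed windows no match overlapped another. E2F sites, the site class of the factors that drive S-phase genes, were searched with a loose core, TTTNNCGC, that allows any base at each N. The CHEK2 window holds a match to this core, TTTAGCGC, at bases 242 to 249. It also holds CCAAT boxes at bases 52 to 56, 181 to 185 and 211 to 215. RNF8 and TP53BP1 hold 1 CCAAT box each, at bases 194 to 198 and 176 to 180, and the BRCA2 window holds no match. RefSeq windows matched 42 of the 47 genes by symbol, with 58 windows in all, and FANCI, NBN, PRKDC, RAD54B and XRCC5 had none in the table. The E2F core was found in 9 of the 58 windows (15.5%, against 6.89% of all 35116 promoter windows), and the CCAAT box in 28 (48.3% against 34.6%). The CHR element TTTGAA, known from G2 and mitotic genes, was in 5 windows (8.62% against 15.2%) and the C/EBP core TTNNGCAA in 5 (8.62% against 10.5%). The palindromic hormone response element, the site class of the progesterone receptor, was in none of the 58, against 0.39% of all windows. These are letter matches in windows that share genes, given as a description.

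Progestin lowered more of the repair genes than it raised in siControl cells. Of the 47, 10 rose and 25 fell at an adjusted p under 0.05, which is 74.5% of them against a background of 58.5% of the 18351 genes tested (29.2% higher and 29.3% lower). By direction, 21.3% of the 47 rose and 53.2% fell. The median log2 change was -0.17 over the 47 and -0.035 over all genes tested. In siCEBPA cells 12 rose and 23 fell (25.5% and 48.9%), against a background of 58.2% called (29.9% higher and 28.4% lower), with medians of -0.20 and -0.028. The siControl and siCEBPA responses share no library, and 10 genes rose in both, 21 fell in both and none moved in opposite directions. Shares of all genes for these pairings were not computed. Where 2 log2 changes stand together without a label, the siControl value comes first. Genes taken by size in each class were called genes whose libraries did not overlap, so lack of overlap adds no support for them. Changes past 2-fold were few, with RNF8, CHEK2 and RBBP8 in siControl cells, while 16.6% of all genes tested were called at that size. Without TMM factors the split in siControl cells became 3 higher and 31 lower, and in siCEBPA cells 3 and 30. Without replicate 2 of siCEBPA untreated the siCEBPA split was 7 higher and 23 lower. Leaving out the scaling factors moved the median of all genes to -0.19 in both, so the small rises named in the next paragraphs are relative to the TMM scale.

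Damage signalling genes moved in both directions. In siControl cells 4 rose, 7 fell and 2 passed the test in neither direction, and the counts in siCEBPA cells were the same. Of all genes tested, 29.2% rose and 29.3% fell in siControl cells, and 29.9% and 28.4% in siCEBPA cells. MDC1, the scaffold on marked chromatin, fell in siControl cells (-0.21 ± 0.053, adjusted p = 0.0028) and had no call in siCEBPA cells (-0.077 ± 0.053, adjusted p = 0.223). The MDC1 call in siControl cells was lost without replicate 1 of siControl progestin (-0.15, adjusted p = 0.0758). ATM had no call in siControl cells (-0.084 ± 0.052, adjusted p = 0.175) and fell in siCEBPA cells (-0.26 ± 0.051, adjusted p = 0.000387), and RNF168 was called in neither (0.10 ± 0.052, adjusted p = 0.106 and -0.03 ± 0.052, adjusted p = 0.654). Gene positions are those of the files, on hg38. RNF8 (chr6:37353972-37394738, plus strand), the ubiquitin ligase that marks chromatin at breaks, stood at 18.8 and 19.1 CPM in untreated siControl libraries and 61.0 and 57.9 CPM after progestin. It stood at 20.0 and 18.8 CPM in untreated siCEBPA libraries and 55.8 and 56.7 CPM after progestin. All 4 progestin libraries lay above all 4 untreated ones, and RNF8 rose 3.11-fold in siControl cells (log2 change 1.64 ± 0.058 (SE), adjusted p = 7.84e-13) and 2.89-fold in siCEBPA cells (1.53 ± 0.059, adjusted p = 2.24e-12). It was the largest rise among the 47 genes in both.

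CHEK2 (chr22:28687743-28742422, minus strand), the checkpoint kinase that ATM activates, showed the largest fall of this class. It stood at 38.8 and 38.0 CPM in untreated siControl libraries and 19.3 and 18.1 CPM after progestin. It stood at 34.2 and 33.3 CPM in untreated siCEBPA libraries and 17.8 and 16.5 CPM after progestin. The progestin libraries did not overlap with the untreated ones, and CHEK2 fell by 51.7% in siControl cells (log2 change -1.05 ± 0.065 (SE), adjusted p = 8.59e-10) and by 49.5% in siCEBPA cells (-0.99 ± 0.066, adjusted p = 2.31e-09). CHEK1, the kinase that ATR activates, and CLSPN, the adaptor that brings it to ATR, also fell. CLSPN went from 31.5 and 27.7 to 16.5 and 17.1 CPM in siControl cells (log2 change -0.82 ± 0.084 (SE), adjusted p = 4.05e-07). CHEK1 went from 97.0 and 78.4 to 48.4 and 51.6 CPM in siControl cells (log2 change -0.82 ± 0.12 (SE), adjusted p = 0.000973). In siCEBPA cells the log2 changes were -0.69 ± 0.084, adjusted p = 3.78e-06 for CLSPN and -0.63 ± 0.12, adjusted p = 0.00381 for CHEK1. Without replicate 2 of siCEBPA progestin the CHEK1 value was -0.54, adjusted p = 0.0531.

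The 3 partners of the end-sensing complex did not move together. NBN, its regulatory subunit, went from 139.6 and 133 to 82.4 and 83.4 CPM in siControl cells (log2 change -0.73 ± 0.046 (SE), adjusted p = 9.3e-10). It went from 133 and 128 to 72.1 and 68.6 CPM in siCEBPA cells (log2 change -0.90 ± 0.046 (SE), adjusted p = 8.48e-11). MRE11, the nuclease, fell with smaller values (-0.35 ± 0.065, adjusted p = 0.000224 in siControl and -0.20 ± 0.065, adjusted p = 0.0146 in siCEBPA cells). Its call in siCEBPA cells was lost without replicate 1 of siCEBPA untreated (-0.15, adjusted p = 0.137) or replicate 2 of siCEBPA progestin (-0.17, adjusted p = 0.078). RAD50, the ATPase that bridges the ends, rose from 104 and 101 to 126 and 121 CPM in siControl cells (log2 change 0.25 ± 0.044 (SE), adjusted p = 0.000133) and in siCEBPA cells (0.21 ± 0.045, adjusted p = 0.000845). TP53BP1, which shields ends from resection, rose in siControl (0.27 ± 0.042, adjusted p = 3.8e-05) and siCEBPA cells (0.18 ± 0.042, adjusted p = 0.00153). ATR rose too (0.15 ± 0.041, adjusted p = 0.00431 and 0.22 ± 0.041, adjusted p = 0.000243), and TOPBP1, the activator of ATR, fell (-0.37 ± 0.044, adjusted p = 2.08e-06 and -0.33 ± 0.044, adjusted p = 7.92e-06). Without scaling factors the rises of RAD50, TP53BP1 and ATR in siCEBPA cells lost their call, at 0.041, adjusted p = 0.428, 0.015, adjusted p = 0.775 and 0.054, adjusted p = 0.269. The same setting gave 0.099, adjusted p = 0.0596 for RAD50 and -0.0011, adjusted p = 0.983 for ATR in siControl cells, and ATR also lost its call there without replicate 2 of siControl untreated (0.13, adjusted p = 0.0533).

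Homologous recombination genes included the largest fall of the 47. In siControl cells 4 rose, 8 fell and 3 passed the test in neither direction. In siCEBPA cells 4 rose, 7 fell and 4 passed the test in neither direction. The background was 29.2% higher and 29.3% lower in siControl cells, and 29.9% and 28.4% in siCEBPA cells. RBBP8 (chr18:22798261-23026488, plus strand), which starts the resection of ends together with the MRE11 complex, stood at 143 and 138 CPM in untreated siControl libraries and 35.6 and 36.9 CPM after progestin. It stood at 96.7 and 94.1 CPM in untreated siCEBPA libraries and 36.5 and 34.0 CPM after progestin. The 4 progestin libraries lay between 34.0 and 36.9 CPM, whereas the untreated siControl libraries lay above the untreated siCEBPA libraries. RBBP8 fell by 74.4% in siControl cells (log2 change -1.97 ± 0.051 (SE), adjusted p = 1.89e-14) and by 63.2% in siCEBPA cells (log2 change -1.44 ± 0.051 (SE), adjusted p = 6.81e-13).

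BRCA2 (chr13:32315474-32400266, plus strand), which acts on resected DNA in strand exchange, stood at 29.7 and 24.4 CPM in untreated siControl libraries and 13.2 and 14.8 CPM after progestin. It stood at 32.2 and 30.4 CPM in untreated siCEBPA libraries and 18.8 and 17.2 CPM after progestin. It fell by 48.4% in siControl cells (log2 change -0.95 ± 0.095 (SE), adjusted p = 5.45e-07) and by 42.8% in siCEBPA cells (-0.81 ± 0.093, adjusted p = 3e-06). BRCA1 (chr17:43044295-43170245, minus strand), which promotes resection and recruits PALB2 and BRCA2, stood at 118 and 99.1 CPM in untreated siControl libraries and 63.8 and 67.1 CPM after progestin. It stood at 120.4 and 108 CPM in untreated siCEBPA libraries and 85.9 and 83.2 CPM after progestin. BRCA1 fell by 40.0% in siControl cells (log2 change -0.74 ± 0.079 (SE), adjusted p = 9.68e-06) and by 26.2% in siCEBPA cells (-0.44 ± 0.078, adjusted p = 0.000575). Neither gene had a progestin library as high as an untreated library of the same siRNA. BARD1, the partner that BRCA1 needs for its ubiquitin ligase activity, fell in siControl (-0.62 ± 0.073, adjusted p = 1.76e-06) and siCEBPA cells (-0.57 ± 0.073, adjusted p = 5.66e-06). BRIP1, the helicase bound to BRCA1, fell too (-0.70 ± 0.083, adjusted p = 2.51e-06 and -0.58 ± 0.083, adjusted p = 1.93e-05).

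PALB2, the bridge between BRCA1 and BRCA2, was raised in siControl (0.24 ± 0.062, adjusted p = 0.0029) and siCEBPA cells (0.19 ± 0.062, adjusted p = 0.0168). Without scaling factors its values were 0.089, adjusted p = 0.222, and 0.021, adjusted p = 0.782. The siControl call was lost without replicate 1 of siControl progestin (0.19, adjusted p = 0.0521). The siCEBPA call was lost without replicate 2 of siCEBPA untreated (0.18, adjusted p = 0.0736) or without replicate 1 of siCEBPA progestin (0.18, adjusted p = 0.0585). XRCC3, XRCC2, RAD51C and RAD51D, which assist strand exchange, split. XRCC3 rose from 22.2 and 22.9 to 29.7 and 31.8 CPM in siControl cells (log2 change 0.43 ± 0.08 (SE), adjusted p = 0.00022). It went from 17.5 and 20.2 to 28.6 and 33.1 CPM in siCEBPA cells (log2 change 0.70 ± 0.081 (SE), adjusted p = 1.92e-06). XRCC2 fell in siControl (-0.71 ± 0.11, adjusted p = 4.83e-05) and siCEBPA cells (-0.39 ± 0.11, adjusted p = 0.00738), though the siCEBPA call was lost without replicate 1 of siCEBPA untreated (-0.22, adjusted p = 0.167). RAD51C had -0.13 ± 0.072, adjusted p = 0.137 and 0.047 ± 0.072, adjusted p = 0.603, with no call. RAD51D was called in siControl cells (-0.15 ± 0.062, adjusted p = 0.0456 and -0.014 ± 0.061, adjusted p = 0.861). The RAD51D call was lost without replicate 1 of siControl untreated, replicate 2 of siControl untreated, replicate 2 of siControl progestin, replicate 1 of siCEBPA untreated, replicate 2 of siCEBPA untreated or replicate 2 of siCEBPA progestin (log2 change -0.16 to -0.084, adjusted p = 0.05 to 0.395). BLM, the helicase that dissolves recombination intermediates, and RAD54B, a relative of RAD54L, were called in neither (-0.056 ± 0.11, adjusted p = 0.679 and 0.012 ± 0.11, adjusted p = 0.933, and 0.031 ± 0.11, adjusted p = 0.822 and -0.25 ± 0.11, adjusted p = 0.0539). EXO1, the nuclease of long-range resection, fell (-0.37 ± 0.073, adjusted p = 0.000439 and -0.37 ± 0.074, adjusted p = 0.000465). RAD52, which anneals single strands, rose (0.31 ± 0.10, adjusted p = 0.0184 and 0.33 ± 0.10, adjusted p = 0.0142). Without scaling factors both calls were lost (0.15, adjusted p = 0.214 and 0.16, adjusted p = 0.199). The RAD52 call in siControl cells was lost without replicate 2 of siControl untreated, replicate 1 of siControl progestin or replicate 2 of siControl progestin (log2 change 0.27 to 0.32, adjusted p = 0.0583 to 0.107). The RAD52 call in siCEBPA cells was lost without replicate 2 of siCEBPA untreated (0.27, adjusted p = 0.0963) or without replicate 2 of siCEBPA progestin (0.25, adjusted p = 0.112). RAD54L, a motor protein of strand invasion, rose (0.36 ± 0.094, adjusted p = 0.00375 and 0.44 ± 0.095, adjusted p = 0.000882). The RAD54L call in siControl cells was lost without replicate 2 of siControl progestin (0.29, adjusted p = 0.0538) and without scaling factors (0.21, adjusted p = 0.0689).

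In the Fanconi class of 10 genes, FANCL, FANCD2 and FANCF fell most after progestin in siControl and siCEBPA cells. In siControl cells 0 rose, 7 fell and 3 passed the test in neither direction. In siCEBPA cells 0 rose, 5 fell and 5 passed the test in neither direction. The background was 29.2% higher and 29.3% lower in siControl cells, and 29.9% and 28.4% in siCEBPA cells. Nothing is read from these small counts, which also depend on the genes placed in the class. Some genes of the related Fanconi list, described further below, did rise. FANCL (chr2:58159243-58241372, minus strand), the ubiquitin ligase of the core complex, showed the largest fall of the class. It stood at 8.92 and 8.26 CPM in untreated siControl libraries and 5.67 and 5.19 CPM after progestin. It stood at 14.2 and 12.1 CPM in untreated siCEBPA libraries and 9.45 and 9.27 CPM after progestin, with no overlap between untreated and progestin libraries of the same siRNA. FANCL fell by 37.0% in siControl cells (log2 change -0.67 ± 0.10 (SE), adjusted p = 3.23e-05) and by 29.2% in siCEBPA cells (-0.50 ± 0.095, adjusted p = 0.000303). FANCD2, whose ubiquitination is the central step of the pathway, went from 78.2 and 67.8 to 51.0 and 55.0 CPM in siControl cells (log2 change -0.47 ± 0.066 (SE), adjusted p = 1.62e-05) . In siCEBPA cells it went from 77.7 and 72.5 to 61.6 and 60.4 CPM (-0.31 ± 0.066, adjusted p = 0.000877). FANCF, an adaptor of the core complex, fell from 32.6 and 33.7 to 23.3 and 25.0 CPM in siControl cells (-0.47 ± 0.061, adjusted p = 5.39e-06). It fell from 35.6 and 36.3 to 26.1 and 25.8 CPM in siCEBPA cells (-0.48 ± 0.061, adjusted p = 4.55e-06). FANCM, the anchor of the complex on DNA, FANCB and FANCE passed the test in neither, with log2 changes between -0.22 and -0.017. UBE2T fell in both (-0.30 ± 0.075, adjusted p = 0.0034 and -0.23 ± 0.075, adjusted p = 0.0177). The UBE2T call in siCEBPA cells was lost without replicate 1 of siCEBPA untreated (-0.14, adjusted p = 0.192) or without replicate 2 of siCEBPA progestin (-0.13, adjusted p = 0.173). FANCI fell in both too (-0.42 ± 0.075, adjusted p = 0.000722 and -0.20 ± 0.075, adjusted p = 0.0406). The FANCI call in siCEBPA cells was lost without replicate 1 of siControl progestin, replicate 1 of siCEBPA untreated or replicate 2 of siCEBPA progestin (log2 change -0.19 to -0.11, adjusted p = 0.05 to 0.287). FANCG and FANCA, core complex subunits, were called in siControl cells (-0.43 ± 0.066, adjusted p = 3.75e-05 and -0.16 ± 0.06, adjusted p = 0.0318). The FANCA call in siControl cells was lost without replicate 1 of siControl untreated (-0.11, adjusted p = 0.243) or without replicate 1 of siControl progestin (-0.10, adjusted p = 0.305). In siCEBPA cells they were not called (-0.15 ± 0.066, adjusted p = 0.0594 and 0.024 ± 0.061, adjusted p = 0.756).

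In end joining, both ligases and the nuclease Artemis fell, and the Ku subunits had small rises on the TMM scale. In siControl cells 2 rose, 3 fell and 4 passed the test in neither direction. In siCEBPA cells 4 rose, 4 fell and 1 passed the test in neither direction. Beside a background of 29.2% higher and 29.3% lower in siControl cells, and 29.9% and 28.4% in siCEBPA cells, nothing is read from these small counts. DCLRE1C (chr10:14897359-14954432, minus strand), which encodes the end-trimming nuclease Artemis, went from 32.8 and 31.0 to 21.8 and 22.9 CPM in siControl cells (log2 change -0.53 ± 0.068 (SE), adjusted p = 5.41e-06). It went from 22.4 and 23.5 to 18.2 and 16.7 CPM in siCEBPA cells (log2 change -0.40 ± 0.07 (SE), adjusted p = 0.000131). LIG3, the ligase of alternative end joining, went from 114 and 112 to 87.8 and 86.3 CPM in siControl cells (log2 change -0.39 ± 0.042 (SE), adjusted p = 6.2e-07). In siCEBPA cells it went from 99.1 and 97.5 to 78.9 and 80.6 CPM (-0.31 ± 0.042, adjusted p = 1.07e-05). LIG4, the ligase of the classical pathway, went from 37.2 and 34.9 to 28.7 and 29.0 CPM in siControl cells (log2 change -0.33 ± 0.075 (SE), adjusted p = 0.0013). In siCEBPA cells it went from 36.3 and 37.9 to 29.0 and 24.3 CPM (-0.48 ± 0.076, adjusted p = 4.87e-05). Neither ligase had a progestin library as high as an untreated library of the same siRNA. XRCC6 rose in siControl (0.24 ± 0.048, adjusted p = 0.000466) and siCEBPA cells (0.27 ± 0.048, adjusted p = 0.000147), and without scaling factors its values were 0.082, adjusted p = 0.132 and 0.11, adjusted p = 0.058. XRCC5 rose with smaller values (0.11 ± 0.041, adjusted p = 0.0277 and 0.12 ± 0.041, adjusted p = 0.0221), and its sign turned without scaling factors (-0.042, adjusted p = 0.369 and -0.048, adjusted p = 0.308). Its siControl call was also lost without replicate 2 of siControl untreated, replicate 1 of siControl progestin or replicate 2 of siControl progestin (log2 change 0.083 to 0.13, adjusted p = 0.0518 to 0.201). Its siCEBPA call was lost without replicate 2 of siCEBPA untreated (0.091, adjusted p = 0.13) or without replicate 1 of siCEBPA progestin (0.094, adjusted p = 0.128). PRKDC stood at 846 and 792 CPM in untreated siControl libraries and 851 and 886 CPM after progestin, with no call (log2 change 0.073 ± 0.043 (SE), adjusted p = 0.163). In siCEBPA cells it stood at 866 and 823 CPM untreated and 919 and 927 CPM after progestin and was called (0.12 ± 0.043, adjusted p = 0.0256). This call was lost without replicate 2 of siCEBPA untreated, replicate 1 of siCEBPA progestin or replicate 2 of siCEBPA progestin (log2 change 0.093 to 0.12, adjusted p = 0.0599 to 0.14), and its sign turned without scaling factors (-0.046, adjusted p = 0.366). POLQ, the polymerase of alternative end joining, had no call in siControl cells (-0.062 ± 0.065, adjusted p = 0.436) and a small rise in siCEBPA cells (0.20 ± 0.066, adjusted p = 0.0177). This rise was not called without scaling factors (0.032, adjusted p = 0.696). The POLQ call was lost without replicate 2 of siCEBPA untreated (0.17, adjusted p = 0.1) or without replicate 1 of siCEBPA progestin (0.19, adjusted p = 0.0561). XRCC4 was called in siCEBPA cells (-0.17 ± 0.093, adjusted p = 0.118 in siControl and -0.27 ± 0.09, adjusted p = 0.0192 in siCEBPA cells). The XRCC4 call was lost without replicate 2 of siCEBPA untreated (-0.20, adjusted p = 0.15) or without replicate 2 of siCEBPA progestin (-0.19, adjusted p = 0.157). NHEJ1 was called in neither (0.12 ± 0.24, adjusted p = 0.676 and 0.17 ± 0.27, adjusted p = 0.61).

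**Figure D2:**
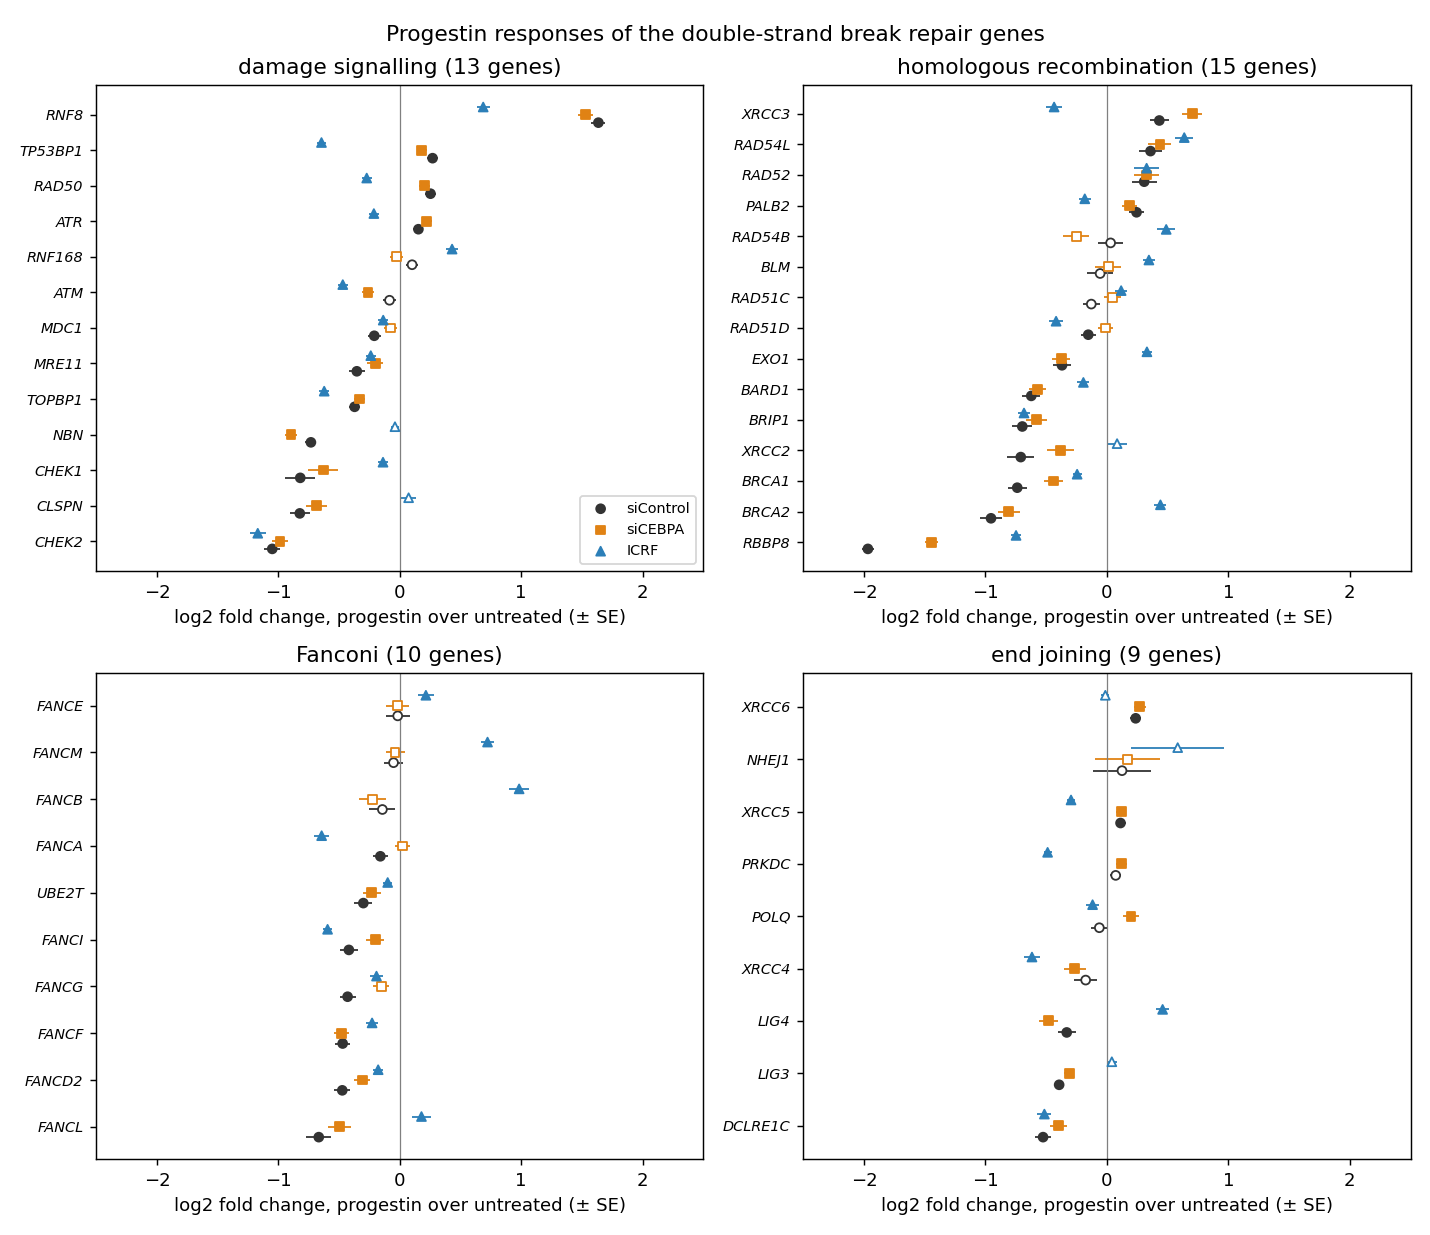
Log2 fold change, progestin over untreated, with its standard error, for every repair gene in siControl (circles), siCEBPA (squares) and ICRF (triangles) cells, with filled symbols for an adjusted p under 0.05. RNF8 leads the rises and RBBP8 the falls in both siRNA groups, while several triangles, such as BRCA2 and TP53BP1, lie on the other side of zero; the rise of XRCC5 and the siControl rise of ATR turn in sign without scaling factors.

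Most mitosis genes fell as well after progestin, while replication genes were more mixed. Of 16 mitosis genes, 15 fell and none rose in siControl cells, with a median log2 change of -0.49, and 13 fell and none rose in siCEBPA cells (-0.28). Their summed level was 3500.1 and 3209.8 CPM in untreated siControl libraries and 2419.6 and 2526 CPM after progestin. In siCEBPA libraries it was 3515 and 3242 CPM untreated and 2873 and 2740.4 CPM after progestin. Among markers, 1 of 10 luminal ones were higher and 6 lower, 1 of 4 basal ones tested were higher and 3 lower, and 1 of 6 fibroblast, endothelial and blood ones tested were higher and 2 lower in siControl cells, and 1 and 7, 1 and 2, and 1 and 1 in siCEBPA cells. Luminal markers summed to 10057 and 10406 CPM in untreated siControl libraries and 9911 and 10571 CPM after progestin, and in siCEBPA libraries to 8393 and 8386 CPM untreated and 7684 and 7938 CPM after progestin. The basal marker called higher in siControl cells rose by 8.24 on the log2 scale, though the basal sum was 13.8 and 16.1 CPM after progestin. Of 17 replication genes, 3 rose and 10 fell in siControl cells, and 2 rose and 7 fell in siCEBPA cells, with medians of -0.31 and -0.075. Their summed level was 1946 and 1751 CPM in untreated siControl libraries and 1672 and 1725 CPM after progestin. In siCEBPA libraries it was 1716 and 1553 CPM untreated and 1710 and 1673 CPM after progestin. Among all genes tested, 29.2% rose and 29.3% fell in siControl cells, and 29.9% and 28.4% in siCEBPA cells. The part of these genes in the repair gene changes was not tested.

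With ICRF, progestin also lowered more repair genes than it raised, with BRCA2, FANCB and FANCM now among those that rose. Of the 47 genes 14 rose and 27 fell (29.8% and 57.4%), against a background of 61.4% called (31.3% higher and 30% lower) among 18556 genes, with a median log2 change of -0.14 over the 47 and -0.011 over all genes. The ICRF libraries are separate from all siRNA libraries. Set beside the siControl response, 3 genes rose in both (RAD52, RAD54L and RNF8) and 17 fell in both. Another 6 rose in siControl cells and fell with ICRF, and 4 fell in siControl cells and rose with ICRF. The share of all genes in each pairing was not computed, so these counts have no background. Without scaling factors the siControl calls of ATR, RAD50, PALB2, XRCC5, RAD52 and RAD54L were lost. The FANCL call with ICRF was lost without either untreated ICRF library or without replicate 2 of ICRF progestin. The difference between the responses was tested in a fit of all 12 libraries. It was higher with ICRF in 21 of the 47 genes and lower in 14 (44.7% and 29.8%), against a background of 48.9% called (24.9% higher and 24% lower) among 19003 genes, with medians of 0.23 and 0.02. Since the ICRF titles name no siRNA, arrest or time, ICRF and these other differences from siControl cannot be told apart. Of the 16 mitosis genes 4 rose and 6 fell with ICRF, and the tested difference was higher in 12 and lower in 1, with summed levels of 5662 and 5622 CPM untreated and 5454 and 5741 CPM after progestin. Of 17 replication genes 2 rose and 11 fell with ICRF, and the tested difference was higher in 3 and lower in 4, with a median of -0.10. All 10 luminal markers fell with ICRF and progestin, from a sum of 11372 and 11365 to 5673 and 5407 CPM, beside the 6 of 10 that fell in siControl and 7 of 10 in siCEBPA cells. The part of these genes in the result was not tested.

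Most damage signalling genes fell with ICRF, where 2 rose, 9 fell and 2 passed the test in neither direction. The background with ICRF was 31.3% higher and 30% lower. CHEK2 fell from 29.9 and 29.5 to 12.5 and 14.2 CPM (log2 change -1.17 ± 0.064 (SE), adjusted p = 2.72e-20), and the difference from siControl was not called (-0.12 ± 0.094, adjusted p = 0.335). RNF8 rose from 24.5 and 25.2 to 40.3 and 40.6 CPM (log2 change 0.69 ± 0.053 (SE), adjusted p = 2.15e-15), with a difference from the siControl rise of -0.94 ± 0.074, adjusted p = 1.18e-09. TP53BP1 (chr15:43403061-43510728, minus strand) fell, from 148 and 150.2 to 94.5 and 98.4 CPM (log2 change -0.64 ± 0.038 (SE), adjusted p = 1.78e-19). In siControl cells the same gene was at 132 and 125 CPM untreated and 157 and 155 CPM after progestin, so the 2 responses had opposite signs, and their difference was -0.91 ± 0.055, adjusted p = 2.4e-11. ATM (chr11:108222484-108369102, plus strand), the kinase at the top of the signal from breaks, stood at 78.5 and 79.8 CPM in untreated ICRF libraries and 56.2 and 59.4 CPM after progestin (log2 change -0.47 ± 0.043 (SE), adjusted p = 4.17e-13). In siControl cells it stood at 60.1 and 55.2 CPM untreated and 55.6 and 54.0 CPM after progestin, with no call (-0.084 ± 0.052, adjusted p = 0.175). The ATM difference was -0.38 ± 0.067, adjusted p = 7e-05. RAD50 and ATR also fell with ICRF (-0.27 ± 0.042, adjusted p = 6.92e-07 and -0.21 ± 0.039, adjusted p = 7.19e-06). Each differed from its siControl response (-0.52 ± 0.066, adjusted p = 1.18e-06 and -0.36 ± 0.057, adjusted p = 1.64e-05). CLSPN and NBN, both lower with progestin in siControl cells, had no call with ICRF (0.073 ± 0.06, adjusted p = 0.303 and -0.04 ± 0.036, adjusted p = 0.359). Their differences were 0.90 ± 0.12, adjusted p = 2.57e-06 and 0.70 ± 0.058, adjusted p = 3.06e-09. RNF168, the ligase that extends the RNF8 mark, rose with ICRF (0.43 ± 0.047, adjusted p = 7.54e-11). CHEK1, MDC1, MRE11 and TOPBP1 fell, with log2 changes of -0.14, -0.14, -0.24 and -0.62.

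**Figure D3:**
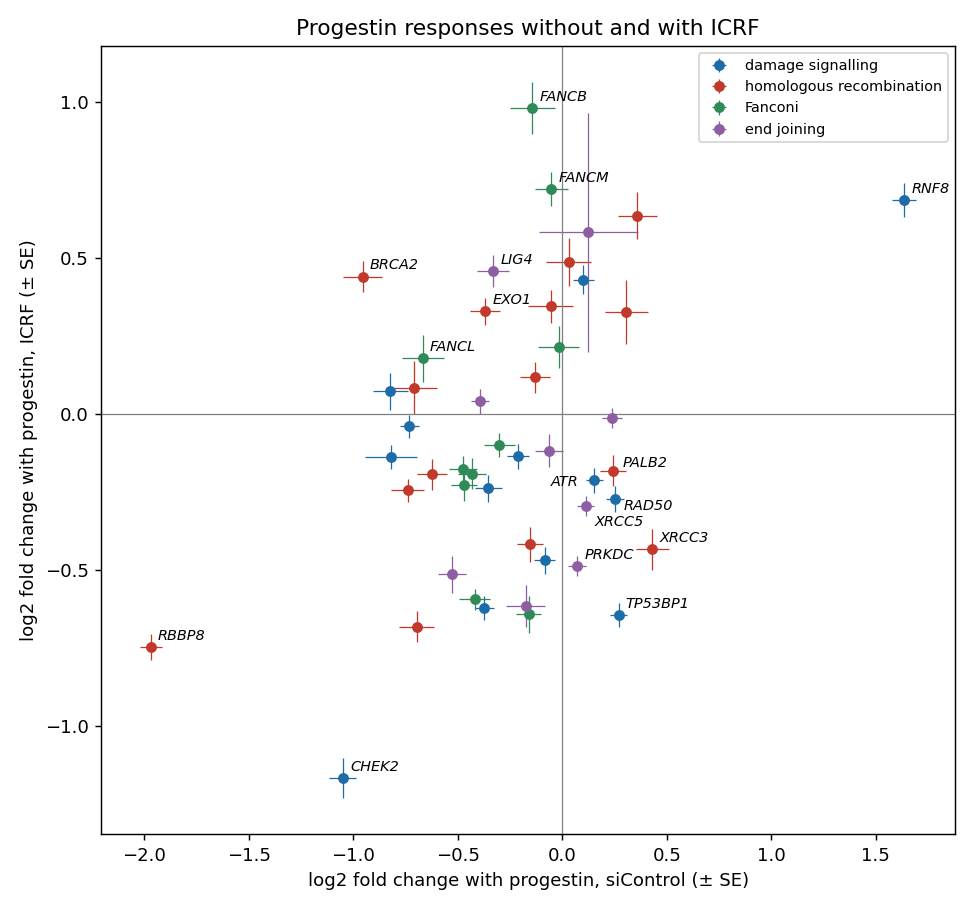
Log2 fold change with progestin in siControl cells (x axis) against that with ICRF (y axis), each with its standard error, coloured by class, with 16 genes named. BRCA2, FANCL, LIG4 and EXO1 lie at upper left, TP53BP1, XRCC3, RAD50, PALB2, ATR and XRCC5 at lower right, RBBP8 and CHEK2 at lower left and RNF8 at upper right; the siControl signs of ATR, XRCC5 and PRKDC turn without scaling factors.

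Recombination genes were split evenly with ICRF, where 7 rose, 7 fell and 1 passed the test in neither direction. All genes tested were split evenly too, with 31.3% higher and 30% lower. BRCA2 stood at 36.1 and 34.6 CPM in untreated ICRF libraries and 47.7 and 49.3 CPM after progestin, so that both progestin libraries lay above both untreated ones, and it rose by 35.8% (log2 change 0.44 ± 0.049 (SE), adjusted p = 1.27e-10). Against its fall in siControl cells the difference was 1.40 ± 0.11, adjusted p = 6.39e-09, the largest among the 47 genes. RBBP8 fell from 82.6 and 85.4 to 51.0 and 50.1 CPM (log2 change -0.75 ± 0.043 (SE), adjusted p = 8.28e-20), less than in siControl cells by 1.22 ± 0.064, adjusted p = 2.29e-12. BRCA1 stood at 139 and 143 CPM in untreated ICRF libraries and 117 and 124 CPM after progestin and fell by 15.6% (log2 change -0.25 ± 0.038 (SE), adjusted p = 3.11e-07), less than in siControl cells (0.50 ± 0.10, adjusted p = 0.00124). BRIP1 fell from 49.9 and 50.6 to 31.0 and 32.3 CPM (log2 change -0.68 ± 0.05 (SE), adjusted p = 3.12e-16), and its difference from siControl was not called (0.017 ± 0.10, adjusted p = 0.909). RAD54L rose from 10.3 and 11.4 to 16.0 and 18.3 CPM (log2 change 0.64 ± 0.076 (SE), adjusted p = 1.07e-09). EXO1 rose (0.33 ± 0.044, adjusted p = 8.77e-09) and XRCC3 and PALB2 fell (-0.43 ± 0.067, adjusted p = 2.27e-07 and -0.18 ± 0.05, adjusted p = 0.0015). Each was opposite to its siControl change, with differences of 0.70 ± 0.089, adjusted p = 1.31e-06, -0.86 ± 0.11, adjusted p = 7.66e-07 and -0.42 ± 0.08, adjusted p = 0.000146. RAD51C, RAD52, BLM and RAD54B rose with log2 changes of 0.12, 0.33, 0.35 and 0.49. BARD1 and RAD51D fell (-0.19 and -0.42), and XRCC2 had no call (0.084 ± 0.085, adjusted p = 0.408).

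Fanconi genes rose in part with ICRF, where 4 of the 10 rose and 6 fell, against a background of 31.3% higher and 30% lower. FANCB (chrX:14843407-14873069, minus strand), a core complex subunit, stood at 6.60 and 7.97 CPM in untreated ICRF libraries and 14.5 and 14.7 CPM after progestin, against 6.43 and 6.22 CPM untreated and 5.70 and 5.84 CPM after progestin in siControl cells. The ICRF progestin libraries were the highest of the 12, and FANCB rose 1.98-fold (log2 change 0.98 ± 0.084 (SE), adjusted p = 9.5e-14), with a difference from siControl of 1.13 ± 0.14, adjusted p = 1.08e-06. FANCM rose from 25.5 and 26.2 to 41.0 and 45.2 CPM (log2 change 0.72 ± 0.054 (SE), adjusted p = 1.07e-15), with a difference of 0.78 ± 0.10, adjusted p = 1.76e-06. FANCA, a core complex subunit, went the other way, from 28.6 and 31.1 to 19.2 and 19.4 CPM (log2 change -0.64 ± 0.06 (SE), adjusted p = 5.96e-13). FANCI, the partner of FANCD2, also fell (-0.59 ± 0.034, adjusted p = 1.09e-19). FANCL stood at 13.3 and 13.5 CPM in untreated ICRF libraries and 13.9 and 16.8 CPM after progestin. It passed the test (log2 change 0.18 ± 0.076 (SE), adjusted p = 0.0409), but the call was lost without replicate 1 of ICRF untreated, replicate 2 of ICRF untreated or replicate 2 of ICRF progestin (log2 change 0.044 to 0.19, adjusted p = 0.0912 to 0.678). The difference of FANCL from its siControl fall was 0.85 ± 0.14, adjusted p = 2.76e-05. FANCE rose with a log2 change of 0.21, and FANCD2, FANCF, FANCG and UBE2T fell with -0.18, -0.23, -0.19 and -0.10.

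Of the 9 end joining genes 1 rose, 5 fell and 3 passed the test in neither direction with ICRF. The background was 31.3% higher and 30% lower. PRKDC stood at 1068 and 1041 CPM in untreated ICRF libraries and 748 and 773 CPM after progestin and fell by 28.7% (log2 change -0.49 ± 0.032 (SE), adjusted p = 1.54e-17), with a difference from siControl of -0.56 ± 0.055, adjusted p = 3.22e-08. XRCC4, the scaffold of LIG4, fell from 19.2 and 19.1 to 12.3 and 13.0 CPM (log2 change -0.62 ± 0.068 (SE), adjusted p = 7.31e-11). LIG4 (chr13:108207439-108218368, minus strand) itself rose from 31.2 and 30.6 to 41.5 and 44.5 CPM (log2 change 0.46 ± 0.052 (SE), adjusted p = 1.65e-10), against a fall in siControl cells, and the difference was 0.79 ± 0.095, adjusted p = 5.54e-07. DCLRE1C fell from 29.7 and 32.5 to 21.7 and 22.3 CPM (log2 change -0.51 ± 0.058 (SE), adjusted p = 1.82e-10), and no difference from siControl was called (0.015 ± 0.091, adjusted p = 0.913). XRCC5 fell (-0.30 ± 0.032, adjusted p = 6.77e-11) and XRCC6 had no call (-0.013 ± 0.032, adjusted p = 0.756). POLQ fell (-0.12), and LIG3 and NHEJ1 had no call (0.041 ± 0.04, adjusted p = 0.393 and 0.58 ± 0.38, adjusted p = 0.191). Over the 4 classes, the calls with ICRF that were lost when 1 ICRF library was left out were those of CHEK1, FANCE, FANCG, FANCL, MDC1, POLQ, RAD51C, RAD52 and UBE2T.

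**Figure D4:**
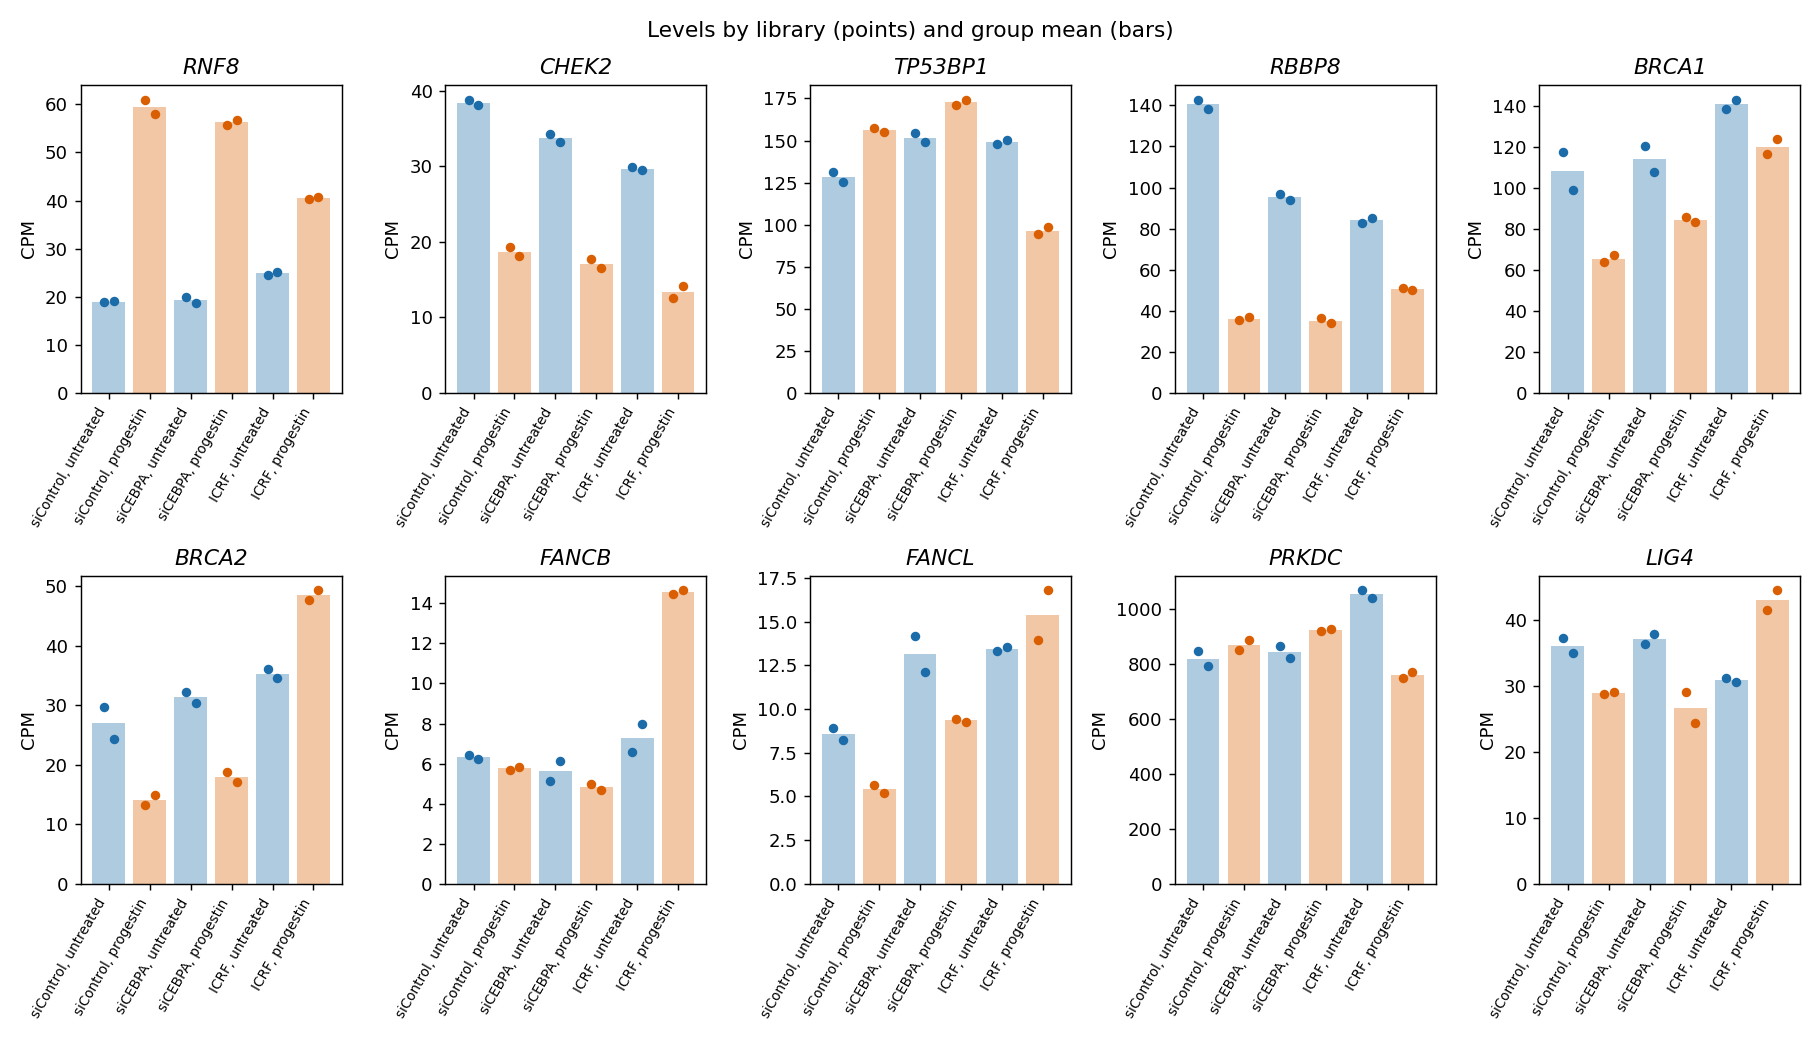
Levels in CPM of 10 repair genes in all 12 libraries (points) with the mean of each group (bars), untreated in blue and progestin in orange. RNF8 reaches 61.0 and 57.9 CPM in siControl progestin libraries, RBBP8 lies at 34.0 to 36.9 CPM after progestin in both siRNA groups, and BRCA2 and FANCB are highest in the ICRF progestin libraries.

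With the CEBPA knockdown, FANCL, ATM and RAD51D were higher and DCLRE1C lower in both hormone states, and RBBP8 was lower in untreated cells. In untreated cells 9 were higher and 9 lower with siCEBPA, against a background of 46.6% called (22.6% higher and 24% lower), so the share of 38.3% called among the 47 was below the background. In progestin-treated cells 13 were higher and 6 lower (40.4% called), against 44.6% (22.5% higher and 22.1% lower). None of the 47 was called at 2-fold or more in either state, where 6.80% of all genes tested were in untreated and 6.59% in progestin-treated cells. The medians were 0.019 and 0.079, beside 0.0062 and 0.02 over all genes. Without scaling factors the splits were 12 higher and 3 lower in untreated cells and 21 and 3 in treated cells. The untreated split became 10 higher and 5 lower without replicate 1 of siControl untreated and 5 higher and 9 lower without replicate 2. It became 5 higher and 8 lower without replicate 1 of siCEBPA untreated and 7 higher and 5 lower without replicate 2. The treated split became 7 higher and 4 lower without replicate 1 of siControl progestin and 10 higher and 3 lower without replicate 2, and 7 higher and 5 lower without replicate 1 of siCEBPA progestin and 13 higher and 3 lower without replicate 2. Of the 16 mitosis genes 4 were higher and 5 lower untreated, and 7 higher and 1 lower with progestin. Of the 17 replication genes 0 were higher and 7 lower untreated, and 2 higher and 4 lower with progestin. Among markers, 0 of 10 luminal ones were higher and 6 lower, 2 of 4 basal ones tested were higher and 1 lower, and 3 of 6 fibroblast, endothelial and blood ones tested were higher and 0 lower with siCEBPA in untreated cells, and 3 and 5, 3 and 1, and 1 and 0 with progestin. Basal markers summed to 22.7 and 20.9 CPM in untreated siControl and 21.5 and 20.3 CPM in untreated siCEBPA libraries, and after progestin to 13.8 and 16.1 CPM with siControl and 17.7 and 18.5 CPM with siCEBPA. The part of these genes in the result was not tested.

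In untreated cells the largest called differences were those of FANCL and RBBP8. FANCL was at 8.92 and 8.26 CPM with siControl and 14.2 and 12.1 CPM with siCEBPA (log2 change 0.63 ± 0.094 (SE), adjusted p = 4.46e-05), with no overlap, and was also higher with progestin (0.80 ± 0.10, adjusted p = 1.19e-05). RBBP8 was at 143 and 138 CPM with siControl and 96.7 and 94.1 CPM with siCEBPA (log2 change -0.55 ± 0.048 (SE), adjusted p = 1.73e-07), against -0.023 ± 0.052, adjusted p = 0.75 with progestin. ATM, at 60.1 and 55.2 CPM with siControl and 75.1 and 75.9 CPM with siCEBPA, was higher (0.40 ± 0.051, adjusted p = 9.53e-06), and with progestin too (0.22 ± 0.052, adjusted p = 0.00226). RAD51D, at 27.0 and 26.8 CPM with siControl and 35.8 and 34.9 CPM with siCEBPA, was higher in both states (0.41 ± 0.061, adjusted p = 5.31e-05 and 0.55 ± 0.063, adjusted p = 3.34e-06). DCLRE1C, at 32.8 and 31.0 CPM with siControl and 22.4 and 23.5 CPM with siCEBPA, was lower in both (-0.47 ± 0.067, adjusted p = 3.46e-05 and -0.34 ± 0.07, adjusted p = 0.000903). XRCC4, at 10.0 and 8.81 CPM with siControl and 12.2 and 13.1 CPM with siCEBPA, was higher untreated (0.45 ± 0.089, adjusted p = 0.00068) and with progestin (0.35 ± 0.094, adjusted p = 0.00586). The XRCC4 call with progestin was lost without replicate 1 of siCEBPA progestin (0.27, adjusted p = 0.0655). In each state, only genes without overlap between the 2 siRNA groups were taken by size, so lack of overlap adds no support. With progestin, RAD51D was at 25.5 and 23.2 CPM with siControl and 34.9 and 35.5 CPM with siCEBPA. ATM was at 55.6 and 54.0 CPM with siControl and 64.1 and 62.5 CPM with siCEBPA. XRCC4 was at 8.49 and 8.23 CPM with siControl and 11.1 and 10.1 CPM with siCEBPA.

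Several smaller differences in untreated cells lost their call when 1 library was left out. TP53BP1 was at 132 and 125 CPM with siControl and 154 and 149 CPM with siCEBPA (0.25 ± 0.042, adjusted p = 0.000136). CHEK2 was at 38.8 and 38.0 CPM with siControl and 34.2 and 33.3 CPM with siCEBPA (-0.18 ± 0.063, adjusted p = 0.0308). Its call was lost without replicate 1 of siControl untreated, replicate 2 of siControl untreated, replicate 1 of siCEBPA untreated or replicate 2 of siCEBPA untreated (log2 change -0.21 to -0.16, adjusted p = 0.0592 to 0.144). FANCA was at 40.4 and 37.9 CPM with siControl and 31.2 and 33.1 CPM with siCEBPA (-0.27 ± 0.06, adjusted p = 0.00149). RAD54B, whose counts are uncertain, was at 6.99 and 5.98 CPM with siControl and 7.89 and 7.97 CPM with siCEBPA (0.31 ± 0.10, adjusted p = 0.0214). The RAD54B call was lost without replicate 2 of siControl untreated, replicate 1 of siCEBPA untreated or replicate 2 of siCEBPA untreated (log2 change 0.19 to 0.31, adjusted p = 0.0752 to 0.259). POLQ was at 40.8 and 35.8 CPM with siControl and 33.5 and 31.8 CPM with siCEBPA (-0.21 ± 0.066, adjusted p = 0.0136). The POLQ call was lost without replicate 1 of siControl untreated (-0.13, adjusted p = 0.162) or without replicate 2 of siCEBPA untreated (-0.18, adjusted p = 0.0985). BRCA2 passed the test untreated (0.23 ± 0.09, adjusted p = 0.0497). This call was lost without replicate 2 of siControl untreated, replicate 1 of siControl progestin, replicate 2 of siControl progestin, replicate 1 of siCEBPA untreated or replicate 2 of siCEBPA untreated (log2 change 0.084 to 0.27, adjusted p = 0.0588 to 0.511), and with DESeq2 (0.22, adjusted p = 0.0706). BRCA1 had no call (0.086 ± 0.078, adjusted p = 0.399), nor had PRKDC (0.055 ± 0.043, adjusted p = 0.316).

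After progestin, 4 of 15 recombination genes were higher and 1 lower with siCEBPA, and 4 of 10 Fanconi genes were higher and 0 lower. Beside a background of 22.5% higher and 22.1% lower, nothing is read from these small counts. BRCA1 was at 63.8 and 67.1 CPM with siControl and 85.9 and 83.2 CPM with siCEBPA (log2 change 0.39 ± 0.08 (SE), adjusted p = 0.0023), with no overlap. BRCA2 was at 13.2 and 14.8 CPM with siControl and 18.8 and 17.2 CPM with siCEBPA (0.38 ± 0.097, adjusted p = 0.00553). Its call was lost without replicate 1 of siControl progestin (0.28, adjusted p = 0.0974) or without replicate 1 of siCEBPA progestin (0.30, adjusted p = 0.0505). FANCI was at 144 and 155 CPM with siControl and 181 and 168 CPM with siCEBPA (0.24 ± 0.075, adjusted p = 0.0277). The FANCI call was lost without replicate 1 of siControl progestin (0.17, adjusted p = 0.207) or without replicate 1 of siCEBPA progestin (0.17, adjusted p = 0.175). FANCG was at 23.8 and 26.0 CPM with siControl and 29.3 and 29.4 CPM with siCEBPA (0.25 ± 0.067, adjusted p = 0.00616). The FANCG call was lost without replicate 1 of siControl progestin (0.17, adjusted p = 0.135). In signalling, MDC1 was higher at 79.2 and 84.7 CPM with siControl and 101 and 99.3 CPM with siCEBPA (0.30 ± 0.053, adjusted p = 0.000218). RNF168 was lower at 70.9 and 71.4 CPM with siControl and 60.2 and 58.9 CPM with siCEBPA (-0.24 ± 0.052, adjusted p = 0.00135). XRCC6 was at 502 and 486 CPM with siControl and 448 and 438 CPM with siCEBPA (-0.14 ± 0.048, adjusted p = 0.0237). The XRCC6 call was lost without replicate 1 of siControl progestin, replicate 2 of siControl progestin or replicate 2 of siCEBPA progestin (log2 change -0.17 to -0.12, adjusted p = 0.0513 to 0.112). PRKDC had no call (0.10 ± 0.043, adjusted p = 0.0646).

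**Figure D5:**
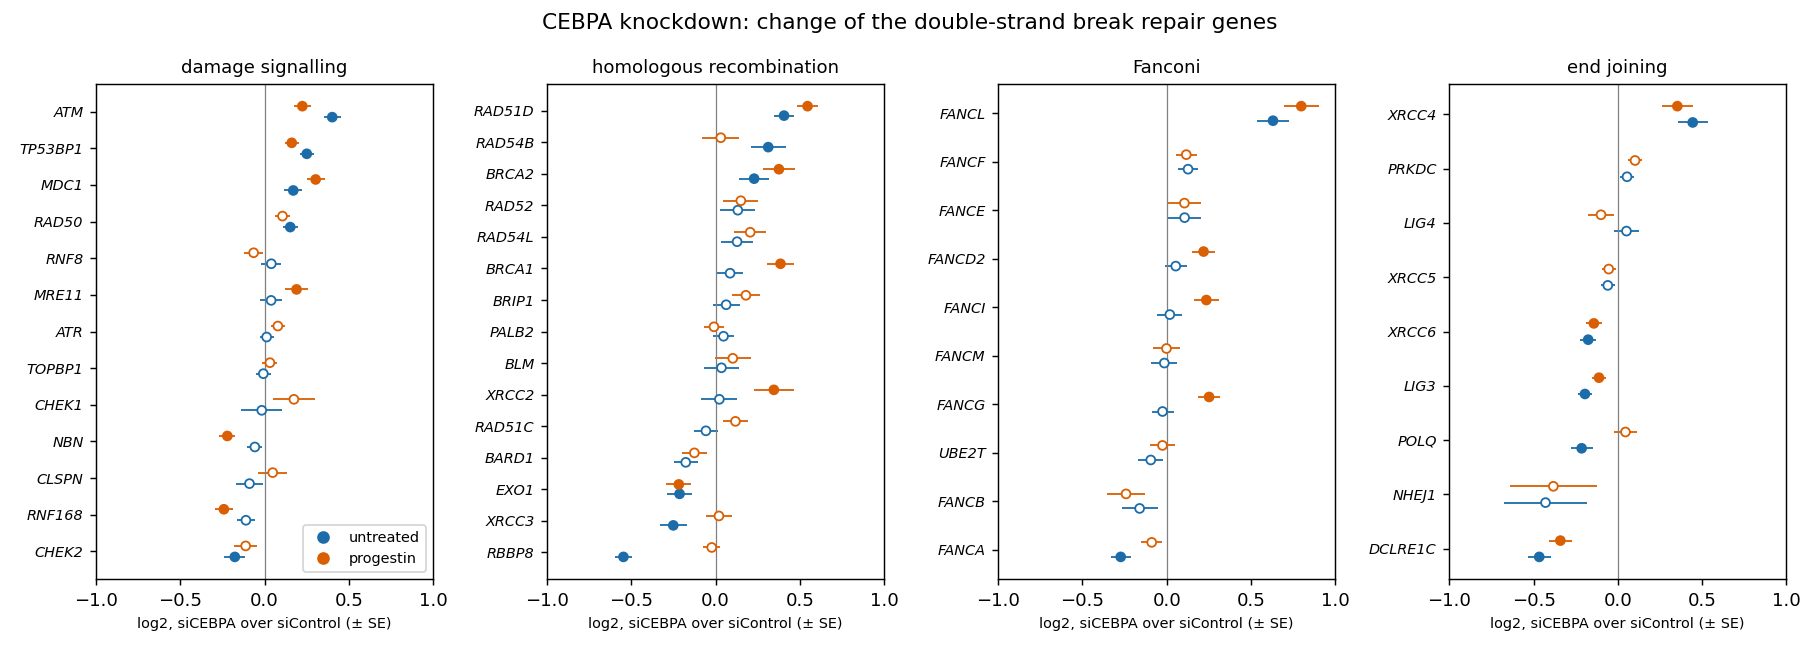
Log2 fold change, siCEBPA over siControl, with its standard error, for every repair gene in untreated (blue) and progestin-treated (orange) cells, with filled symbols for an adjusted p under 0.05. FANCL is the highest value in both states, RBBP8 is lower in untreated cells (-0.55) and near zero with progestin (-0.023), and the uncalled untreated value of BRCA1 (0.086) turns in sign without replicate 2 of siControl untreated or replicate 1 of siCEBPA untreated.

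Whether CEBPA knockdown altered the hormone response was tested directly as the difference of the siCEBPA and siControl responses. It was called for 1 gene, RBBP8, against a background of 7.24% called (4.19% higher and 3.06% lower), and 8 of the 47 had an unadjusted p under 0.05. The count became 5 without the filter on low counts, with BRCA1 (0.31, adjusted p = 0.000551), FANCI (0.23, adjusted p = 0.008), FANCG (0.29, adjusted p = 0.0472) and POLQ (0.28, adjusted p = 0.0499) added. It also became 5 with the replicate number as a block, with BRCA1 (0.30, adjusted p = 0.0314), FANCG (0.28, adjusted p = 0.037), POLQ (0.26, adjusted p = 0.0389) and XRCC3 (0.27, adjusted p = 0.0424) added. Without replicate 2 of siControl untreated BRCA1 (0.42, adjusted p = 0.00561) and POLQ (0.35, adjusted p = 0.0336) were added. The RBBP8 fall was smaller with siCEBPA by 0.52 ± 0.071 on the log2 scale (adjusted p = 0.000235), with treated levels that were close in both siRNA groups and untreated levels that differed. The differences for BRCA1 (0.30 ± 0.11, adjusted p = 0.157), BRCA2 (0.15 ± 0.13, adjusted p = 0.627), ATM (-0.18 ± 0.073, adjusted p = 0.182) and PRKDC (0.048 ± 0.061, adjusted p = 0.756) were not called in the fit used for the other values. Over the 47 genes the standard error of this difference reached 0.36, and a missed threshold does not show that the responses were alike.

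Untreated ICRF cells also differed from untreated siControl cells, with 27 repair genes higher and 9 lower (57.4% and 19.1%), against a background of 64.6% called (32.3% higher and 32.3% lower) and medians of 0.23 over the 47 and -0.0028 over all genes. XRCC4 was at 10.0 and 8.81 CPM in siControl and 19.2 and 19.1 CPM in ICRF libraries (log2 change 1.03 ± 0.078 (SE), adjusted p = 4.35e-10). Both ICRF libraries lay above both siControl libraries in XRCC4. BRIP1 went from 31.5 and 26.4 CPM in siControl to 49.9 and 50.6 CPM in ICRF libraries (0.80 ± 0.07, adjusted p = 3.6e-09). FANCL was at 8.92 and 8.26 CPM against 13.3 and 13.5 CPM with ICRF (0.65 ± 0.093, adjusted p = 3.8e-06). RAD54B was at 6.99 and 5.98 CPM against 9.34 and 10.1 CPM with ICRF (0.60 ± 0.091, adjusted p = 7.63e-06). ATM (0.46 ± 0.047, adjusted p = 3.75e-08), BRCA2 (0.39 ± 0.078, adjusted p = 0.00024), BRCA1 (0.38 ± 0.072, adjusted p = 0.000423) and PRKDC (0.37 ± 0.039, adjusted p = 6.17e-08) were also higher with ICRF. RBBP8 was lower, at 82.6 and 85.4 CPM (log2 change -0.74 ± 0.044 (SE), adjusted p = 8.83e-12). NHEJ1, the stabilising factor of the ligation complex, was lower too (log2 change -1.73 ± 0.30 (SE), adjusted p = 3.43e-05). Its counts are uncertain, and its level was 0.833 and 0.943 CPM in siControl and 0.192 and 0.342 CPM in ICRF libraries. Mitosis genes were higher in 15 of 16 and lower in none, at 5662 and 5622 CPM summed against 3500.1 and 3209.8 CPM. Among markers, 4 of 10 luminal ones were higher and 4 lower, 4 of 5 basal ones tested were higher and 0 lower, and 2 of 6 fibroblast, endothelial and blood ones tested were higher and 3 lower in ICRF cells. Basal markers summed to 22.7 and 20.9 CPM in siControl and 43.0 and 45.7 CPM in ICRF libraries, and fibroblast, endothelial and blood markers to 65.2 and 72.1 CPM in siControl and 30.9 and 34.1 CPM in ICRF libraries. The part of these genes in the result was not tested. ICRF and the siRNA, arrest and time of the siControl cells cannot be told apart here.

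The other genes of these pathways were followed in a list of 71. Of the 69 tested in the siRNA fit, 19 rose and 33 fell with progestin in siControl cells, and 18 rose and 27 fell in siCEBPA cells. The background was 29.2% higher and 29.3% lower in siControl cells, 29.9% and 28.4% in siCEBPA cells, and 31.3% and 30% with ICRF. With ICRF 27 rose and 24 fell of 69. With the CEBPA knockdown 8 of 69 were higher and 29 lower in untreated cells, against a background of 22.6% and 24%. In progestin-treated cells 10 were higher and 20 lower, against 22.5% and 22.1%. Among signalling genes, ABRAXAS1, which docks BRCA1 on ubiquitin chains, fell in siControl, siCEBPA and ICRF cells (-1.36 ± 0.10, adjusted p = 1.22e-08, -1.46 ± 0.10, adjusted p = 4.97e-09 and -1.20 ± 0.075, adjusted p = 2.07e-18). TIMELESS, of the fork protection complex, fell in siControl cells (-0.71 ± 0.05, adjusted p = 3.92e-09). HUS1, of the checkpoint clamp, rose with ICRF (0.67 ± 0.051, adjusted p = 1.02e-15) and was lower with siCEBPA in untreated cells (-0.74 ± 0.06, adjusted p = 6.25e-08). Among recombination genes, RMI1, a partner of BLM, fell in siControl cells (-0.92 ± 0.078, adjusted p = 3.59e-08), TOP3A, the topoisomerase of that complex, rose (0.48 ± 0.042, adjusted p = 5e-08), and FIGNL1 rose with ICRF (0.80 ± 0.04, adjusted p = 7.12e-22). Of the 15 genes tested in the Fanconi list, 5 rose and 7 fell in siControl cells, and 5 rose and 4 fell in siCEBPA cells. In this list ERCC1, a partner of the ERCC4 nuclease, fell in siControl cells (-0.42 ± 0.049, adjusted p = 1.92e-06). UHRF1 fell in siControl cells and with ICRF (-0.62 ± 0.083, adjusted p = 1.03e-05 and -1.02 ± 0.055, adjusted p = 1.27e-20), and SLX4, the nuclease scaffold, rose with ICRF (0.70 ± 0.056, adjusted p = 6.61e-15). SLX4 and REV1 rose in siCEBPA cells (0.45 ± 0.07, adjusted p = 4.32e-05 and 0.38 ± 0.062, adjusted p = 5.76e-05). In the end joining list PARP1, the break sensor that makes poly(ADP-ribose), rose from 422 and 404 to 732 and 708 CPM in siControl cells (log2 change 0.79 ± 0.041 (SE), adjusted p = 7.8e-11). It rose less in siCEBPA cells (0.56 ± 0.041, adjusted p = 6.56e-09), and this difference was called (-0.23 ± 0.057, adjusted p = 0.0202). Of the 69 related genes the same difference was higher in 2 and lower in 4, PARP1 among them, against a background of 4.19% and 3.06%. The 2 higher were UHRF1 (0.58 ± 0.12, adjusted p = 0.00662) and TIMELESS (0.34 ± 0.07, adjusted p = 0.00604).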

How the data were processed

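RNA-seq was analysed in 12 libraries of T47D cells, grouped by their titles. The deposited values are raw counts of read pairs per gene, made with featureCounts 1.5.1 in paired, reverse-stranded mode on GENCODE 24 genes and hg38, per the file headers, which set no option for multi-mapping or multiply assigned reads. The assembly folder named there is hg38_mmtv. STAR and Trimmomatic are named in the submitters' processing notes. Library kits were stranded, per the labels' protocols.

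Genes were filtered with filterByExpr, scaled with TMM factors and tested with edgeR 4.0.16 in R 4.3.3 (glmQLFit with robust estimation, glmQLFTest), with Benjamini-Hochberg adjustment over all genes tested and a threshold of 0.05. The 8 siRNA libraries made 1 fit (18351 genes, 4 residual degrees of freedom), the 4 ICRF libraries another (18556 genes, 2) and all 12 a further one (19003 genes, 6). The standard error is the log2 change divided by the square root of F. The steps were tested on simulated counts. CPM levels use TMM factors over 12 libraries, and CPM per kilobase uses the exonic length in the files. Alternatives were other scalings, no filter, a replicate block, DESeq2 1.42.0 and leaving out each library. Comparisons within the siRNA or ICRF libraries were also made in the fit of all 12 libraries.

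The members and the gene lists were chosen with earlier results of these data known. The rule for named genes took, in each class and each progestin response or knockdown comparison, the 3 with the largest absolute log2 change among called genes whose libraries did not overlap, the 6 largest called differences in the other comparisons, the 2 smallest p-values of each related list, and BRCA1, BRCA2, ATM and PRKDC. Others were named after their values were seen. For genes taken by size in a class, the lack of overlap follows from the rule. Promoter windows and their sequences come from RefSeq, GRCh38.p14.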

Additional observations from a re-analysis of the deposited data

Results flagged for a closer look

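These are the repair genes whose response to progestin differed between groups of cells by the test of the difference itself, with edgeR's quasi-likelihood test and adjustment over all genes. Between ICRF and siControl cells 35 of the 47 were called, against 48.9% of all genes tested (24.9% higher and 24% lower). The log2 difference was 1.40 in BRCA2, 1.22 in RBBP8, 1.13 in FANCB, 0.90 in CLSPN, 0.85 in FANCL, 0.80 in XRCC2 and 0.79 in LIG4. It was 0.78 in FANCM, 0.70 in EXO1, 0.70 in NBN, 0.68 in CHEK1, 0.50 in BRCA1, 0.46 in RAD54B and 0.44 in LIG3. Smaller ones among the higher were 0.43 in BARD1, 0.40 in BLM, 0.33 in RNF168, 0.30 in FANCD2, 0.25 in RAD51C, 0.25 in FANCF and 0.24 in FANCG. Among those lower with ICRF the difference was -0.94 in RNF8, -0.91 in TP53BP1, -0.86 in XRCC3, -0.56 in PRKDC, -0.52 in RAD50, -0.48 in FANCA and -0.44 in XRCC4. It was -0.42 in PALB2, -0.40 in XRCC5, -0.38 in ATM, -0.36 in ATR, -0.26 in RAD51D, -0.25 in TOPBP1 and -0.25 in XRCC6 as well. The calls of BLM, FANCD2, FANCF, FANCG, RAD51C, RAD51D, TOPBP1 and XRCC6 were lost in at least 1 alternative setting. These differences rest on 2 libraries in each group, and the ICRF libraries differ from siControl also in siRNA, arrest and time label.

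Between siCEBPA and siControl cells the response of RBBP8 differed by 0.52, a smaller fall with siCEBPA, against 7.24% of all genes called.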

How the results depend on the processing

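Of 122 recomputed counts of called repair genes, 117 stayed within 1.5 times the main count. The count for the difference of the siCEBPA and siControl responses was 1 and became 5 without the filter on low counts and 5 with a replicate block. The labels do not say what the replicate numbers share, so the numbers were not taken to pair the samples. Correlations of same-numbered deviations were 0.207, 0.24 and 0.232 among both untreated siRNA groups and siCEBPA progestin, and -0.12 to 0.0545 in the other pairs of groups. The replicate block moved no other count past 1.5 times. Leaving out 1 library gave 1 to 3 for that difference, 11 to 19 for the knockdown with progestin, 12 to 19 untreated, 30 to 35 for progestin in siControl, 28 to 36 in siCEBPA, 34 to 40 with ICRF, 29 to 37 for the ICRF difference and 33 to 37 for untreated ICRF. Without replicate 2 of siControl untreated the first was 3. Signs turned for PRKDC with progestin in siControl cells (-0.038 with upper quartile scaling and -0.082 without scaling factors) and in siCEBPA cells (-0.010 and -0.046), and for BRCA1 with the knockdown in untreated cells (-0.038 without replicate 2 of siControl untreated, below zero also without replicate 1 of siCEBPA untreated, and a range of -0.038 to 0.20 over the libraries left out). Upper quartile scaling moved the split in siControl cells to 6 higher and 29 lower and in siCEBPA cells to 4 and 29, and in the ICRF libraries to 11 and 29. For these the cause was not tested. The RBBP8 call of the siCEBPA difference was made in every setting. Of the 41 calls for progestin with ICRF, 5 were lost in the fit of all 12 libraries (12 higher and 24 lower). With DESeq2 5 were lost as well (11 higher and 25 lower). The standard errors of the 47 genes reached 0.38 with ICRF, and 2 libraries a group limit what can be seen.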

Other observations

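Partner subunits were compared after their values were seen, as a description. BRCA1 and BARD1 both fell with progestin in siControl, siCEBPA and ICRF cells, with log2 changes of -0.74 and -0.62, -0.44 and -0.57, and -0.25 and -0.19. FANCD2 and FANCI, which are ubiquitinated as a pair, fell in all 3 as well, with -0.47 and -0.42, -0.31 and -0.20, and -0.18 and -0.59, though the siCEBPA call of FANCI was lost without replicate 1 of siControl progestin, replicate 1 of siCEBPA untreated or replicate 2 of siCEBPA progestin (log2 change -0.19 to -0.11, adjusted p = 0.05 to 0.287). LIG4 and its scaffold XRCC4 had opposite signs with ICRF (0.46 and -0.62). In all 3 groups of cells 13 of the 47 genes fell with progestin (BARD1, BRCA1, BRIP1, CHEK1, CHEK2, DCLRE1C, FANCD2, FANCF, FANCI, MRE11, RBBP8, TOPBP1 and UBE2T), and 3 rose (RAD52, RAD54L and RNF8). The share of all genes called alike in all 3 was not computed. The RAD52 rise lost its call without scaling factors in siControl cells (0.15, adjusted p = 0.214) and in siCEBPA cells (0.16, adjusted p = 0.199), and the RAD54L rise in siControl cells (0.21, adjusted p = 0.0689). Leaving out 1 library ended calls in siControl cells for RAD52 and RAD54L, in siCEBPA cells for CHEK1, FANCI, MRE11, UBE2T and RAD52, and with ICRF for CHEK1, UBE2T and RAD52.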
